A study of Rattus norvegicus with 64 samples.

Results

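The 79 transcripts described here lay lower in rat liver after bromobenzene than after vehicle at both 5 h and 10 h after dosing, out of 31715 rat transcripts listed in each library. They were chosen by the values themselves. For each transcript, the log2 of TPM + 0.5 (TPM is an abundance corrected for transcript length and scaled to the same total in every library) was averaged over the libraries of a group, and the bromobenzene mean minus the vehicle mean had to be -0.4 or lower at each time. At each time, at most 10 of the 64 pairs of 1 bromobenzene and 1 vehicle liver library could have bromobenzene higher, and the mean over all 32 liver libraries had to be at least 2 TPM, a level that 11866 transcripts reached. Every liver difference between bromobenzene and vehicle given below therefore describes how the transcripts were picked and carries no test.

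The study gave 32 Sprague Dawley rats a single dose of 0.4 g/kg bromobenzene or a 2% saline vehicle and took liver and kidney at 5 h or 10 h, with 8 rats for each agent and time. Polyadenylated RNA was sequenced in 64 libraries, 8 for each combination of organ, agent and time. No genetic change is labelled in any group, and agent is the only label that separates the vehicle and bromobenzene groups of an organ and time, although their shares of the 2 runs of library numbers described below differ. The labels give neither age nor which liver and kidney libraries came from 1 rat. One protocol entry speaks of cultured cells although every library is labelled as liver or kidney.

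Bromobenzene is an industrial solvent and a classical experimental liver poison. Cytochrome P450 enzymes of the hepatocyte, the main metabolic cell of the liver, oxidise it to reactive epoxides, which are normally captured by glutathione; once glutathione runs low, the products bind to proteins and the cells around the central veins die. In the kidney the injury is known to come from quinone metabolites that arrive as glutathione conjugates and harm the proximal tubule. The deposited libraries identify transcripts only by Ensembl transcript number, and none of the 79 could be matched to a gene symbol with the annotation used here. Their functions, and the markers of hepatocytes and of other liver cells, are therefore not described, and most transcripts are identified by their place in the order of the mean of the 5 h and 10 h differences, the 1st being the most negative. In whole organs, fewer cells of a type and less RNA per cell cannot be told apart.

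Estimated counts summed to between 13789055 and 28308155 per liver library and between 16981846 and 24118479 per kidney library. A pair of liver libraries stood apart from their groups. In bromobenzene replicate 2 at 5 h, the median deviation of the 79 transcripts from the vehicle mean was only -0.09 on the log2 scale, whereas the other 7 bromobenzene livers of that time lay between -1.07 and -0.63. Its summed TPM over the 79 transcripts, 5212, was close to the vehicle mean of 5525 ± 739 (SD, n = 8). It held the highest value of the 8 bromobenzene libraries for 56 of the 79 transcripts. It lay within the range of the vehicle livers for 54 of them, below the lowest vehicle liver for 22 and above the highest for 3. At 10 h, bromobenzene replicate 7 had a median deviation of -0.47, whereas the other 7 lay between -0.92 and -0.73. The counts, medians and sums over the 79, and the values of several transcripts described below, are given with and without these libraries. Without replicate 2 at 5 h the choice would have taken 83 transcripts, 73 of them among the 79, and without replicate 7 at 10 h 82, with 76 among the 79.

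The 79 differences had like medians at both times. At 5 h the log2 differences ran from -2.21 to -0.41 with a median of -0.75, against a median of -0.05 over all 11866 transcripts at 2 TPM or more. At 10 h they ran from -1.80 to -0.40 with a median of -0.80, against 0.06 over the 11866. Without bromobenzene replicate 2 the median at 5 h was -0.84, and without replicate 7 that at 10 h was -0.83. A difference of -1 or lower was reached by 25 of the 79 at 5 h, by 26 at 10 h and by 17 at both times. Without replicate 2 the 5 h number was 34, and without replicate 7 the 10 h number was 29.

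**Figure D1:**
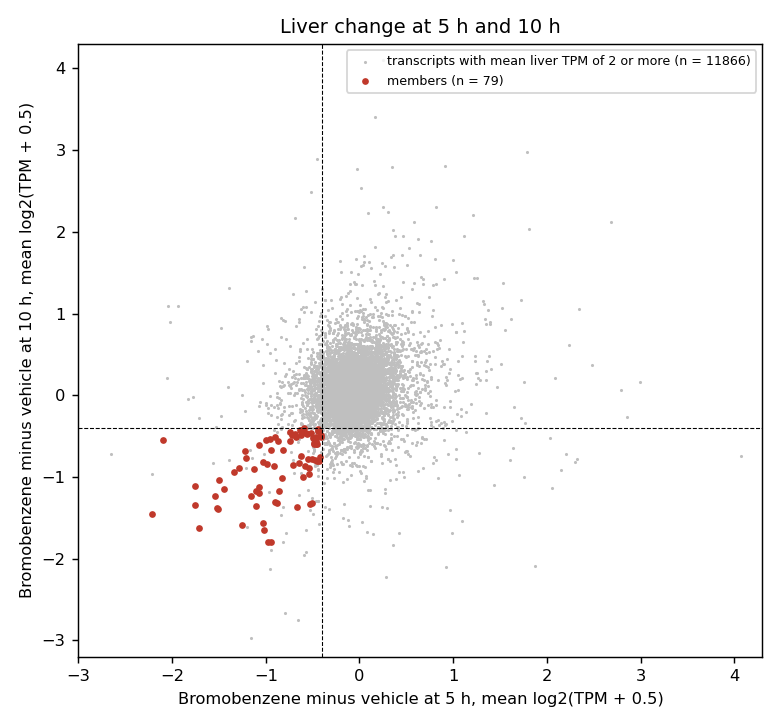
Bromobenzene minus vehicle difference in mean log2(TPM + 0.5) in liver at 5 h (horizontal axis) and at 10 h (vertical axis), with each of the 79 transcripts as a point over all transcripts at 2 TPM or more. The 79 lie between -2.21 and -0.41 at 5 h and between -1.80 and -0.40 at 10 h, a corner that the choice of transcripts fixes.

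The 10 h difference minus the 5 h difference had a median of 0.00, against 0.11 over the 11866, and ran from -0.85 to 1.54. Relative to their vehicle, 40 of the 79 were lower at 10 h than at 5 h, against 4089 of the 11866. Of the 79, 7 were lower at 10 h by 0.5 or more, and 4 were less far down by 0.5 or more. Among the 11866, 467 were lower and 1176 higher by as much. Both directions together made up 13.9% of the 79 and 13.8% of the 11866, although their balance differed. The choice limited both differences, so nothing is read from these counts. The limits of the choice cut through a continuum. For the 5 h difference the nearest transcript inside stood at -0.41 and the nearest outside at -0.38, and 20 transcripts missed by that limit alone. For the 10 h difference these values were -0.40 and -0.39, also with 20 missing. The limit on pairs kept out 27 transcripts at 5 h and 8 at 10 h on its own, with 10 pairs inside and 11 pairs outside in each case. For the level, the nearest inside had a mean of 2.01 TPM and the nearest outside 1.64 TPM.

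For 10 of the 79, every bromobenzene liver lay below every vehicle liver at 5 h, where 0.287% of the 11866 transcripts did. At 10 h this was so for 25 of the 79, against 1.03% of the 11866. Both times showed full separation for 2 transcripts, the 38th and the 62nd in order, and no other transcript among the 11866 did. Without bromobenzene replicate 2 the number at 5 h was 30, against 0.801% of the 11866, and without replicate 7 that at 10 h was 38, against 1.31%. Since the choice used these contrasts, nothing is read from these counts.

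The transcript ENSRNOT00000008535.5, 3333 bases long, had the most negative mean of the 5 h and 10 h differences. In the 8 vehicle livers at 5 h it stood at 85.0, 68.0, 76.7, 55.6, 73.6, 39.8, 72.5 and 59.3 TPM. In the bromobenzene livers at 5 h it stood at 5.85, 49.5, 18.3, 5.07, 18.7, 21.3, 8.49 and 11.99 TPM. The groups overlapped through a single pair of libraries, bromobenzene replicate 2 at 49.5 TPM and the lowest vehicle liver at 39.8 TPM. The means were 66.3 ± 14.3 TPM in vehicle and 17.4 ± 14.3 TPM in bromobenzene (SD, n = 8 each), a log2 difference of -2.21, or -2.47 without replicate 2.

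At 10 h the same transcript stood at 68.9, 79.6, 50.02, 58.2, 60.7, 66.1, 73.7 and 83.3 TPM in the vehicle livers. In the bromobenzene livers at 10 h it stood at 21.035, 31.5, 21.2, 24.9, 21.6, 11.7, 51.7 and 24.3 TPM. Again 1 pair overlapped, bromobenzene replicate 7 at 51.7 TPM against the lowest vehicle liver at 50.02 TPM. The log2 difference was -1.45, or -1.61 without replicate 7, from means of 67.6 ± 11.2 and 25.99 ± 11.7 TPM (SD, n = 8 each). In vehicle livers its log2 difference between 10 h and 5 h was 0.03 and did not pass (adjusted p = 0.979 by edgeR's quasi-likelihood test). Kidney held little of it, with group means from 1.09 to 1.51 TPM.

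The transcript ENSRNOT00000018795.3, 1268 bases long, was the most abundant of the 79, with a mean of 614 TPM over the 32 liver libraries. Vehicle livers at 5 h held 349.9, 188.5, 726.8, 319.7, 248.1, 197.8, 273.7 and 144.5 TPM. Bromobenzene livers at 5 h held 62.1, 203.2, 77.3, 145.9, 46.2, 126.5, 83.2 and 139.9 TPM. The groups overlapped at their edges, with bromobenzene higher in 4 of the 64 pairs.

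By 10 h the vehicle livers held 1279, 1329, 1251, 1608, 1366, 1312, 1450 and 1386 TPM of this transcript. The bromobenzene livers at 10 h held 398.2, 758.0, 792.0, 568.5, 748.4, 752.3, 1068 and 252.8 TPM, all below every vehicle liver of that time and all above the 5 h bromobenzene livers. The log2 difference between agents was -1.44 at 5 h, or -1.59 without replicate 2, and -1.15 at 10 h, or -1.27 without replicate 7. In vehicle livers the level at 10 h exceeded that at 5 h by a log2 difference of 2.14 ± 0.32 (SE; adjusted p = 1.793e-05 from edgeR), in 8 of 8 libraries against each of the 8 at 5 h.

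The transcript ENSRNOT00000027506.5, 5783 bases long and 25th in order, had the largest vehicle difference between the times among the 79 and was picked out after its values were seen. Vehicle livers at 5 h held only 0.599 to 1.28 TPM (median 0.949) and bromobenzene livers 0.284 to 0.790 TPM (median 0.385). Vehicle livers at 10 h held 9.68 to 13.5 TPM (median 10.95) and bromobenzene livers 2.17 to 5.56 TPM (median 4.43). The groups did not overlap at 10 h, and at 5 h bromobenzene was higher in 1 of 64 pairs. The difference between agents was -0.67 at 5 h and -1.37 at 10 h. At these low 5 h levels the added 0.5 TPM matters, and with 0.1 TPM added the 5 h difference was -1.04.

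**Figure D2:**
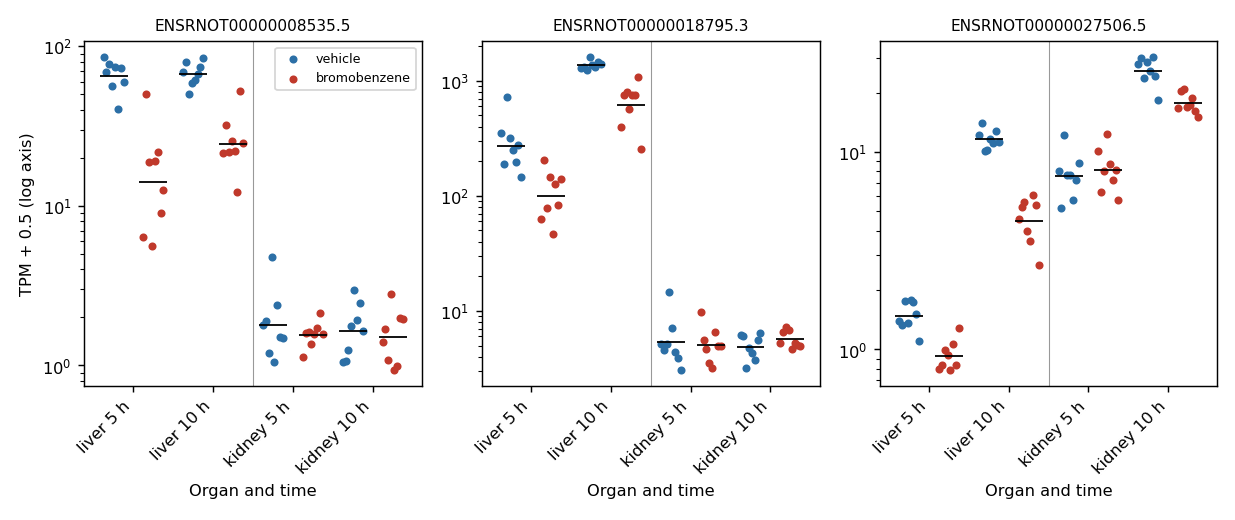
TPM of 3 of the 79 transcripts in every liver and kidney library by agent and time on a log axis, with each point a library. Bromobenzene livers lie mostly below the vehicle livers of their time, and 2 of the 3 transcripts are higher in vehicle livers at 10 h than at 5 h.

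Among the other transcripts of high level, the 7th in order, 1359 bases long, had 614 ± 211 TPM in vehicle and 287 ± 169 TPM in bromobenzene livers at 5 h. At 10 h it had 653 ± 106 and 231 ± 93.3 TPM (SD, n = 8 in each group). The 49th in order, 1636 bases long, held 641 ± 87.5 against 427 ± 124 TPM at 5 h and 548 ± 61.1 against 328 ± 46.8 TPM at 10 h. Both were without overlap between the agents at 10 h, with 0 of 64 pairs higher in bromobenzene, and overlapped at 5 h, with 7 and 5 such pairs. Without replicate 2 the 5 h bromobenzene means were 239 ± 109.8 and 391.7 ± 78.1 TPM (SD, n = 7), with 2 and 0 such pairs of the 7th and the 49th.

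The 2nd in order, 1849 bases long, held 192 ± 46.5 TPM in vehicle and 66.7 ± 49.6 TPM in bromobenzene livers at 5 h, and 205 ± 41.3 and 72.9 ± 41.4 TPM at 10 h. Its log2 differences were -1.72 and -1.62, or -1.96 and -1.81 without the 2 libraries that stood apart. The 11th, of 1271 bases, went from 416 ± 90.1 to 212 ± 87.5 TPM at 5 h and from 405 ± 37.4 to 133 ± 38.8 TPM at 10 h. For that transcript the difference was more negative at the later time, at -1.65 against -1.02, and at -1.75 against -1.17 without the libraries that stood apart.

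The 3rd, 4th, 5th and 8th in order lay lower in level. The 4th, of 1652 bases, held 2.20 ± 1.02 TPM in vehicle and 0.407 ± 0.174 TPM in bromobenzene livers at 5 h without overlap, and 4.46 ± 1.71 against 1.71 ± 1.47 TPM at 10 h with 6 of 64 pairs higher in bromobenzene. The 5th, of 1697 bases, held 26.2 ± 6.26 against 9.64 ± 6.46 TPM at 5 h and 25.2 ± 5.51 against 9.94 ± 3.94 TPM at 10 h, where the agents did not overlap. Without replicate 2 it held 7.39 ± 1.35 TPM at 5 h (SD, n = 7), also without overlap. The 3rd, of 3191 bases, had log2 differences of -1.76 and -1.35, and the 8th, of 3125 bases, -1.55 and -1.23, with vehicle means from 5.80 to 11.9 TPM for the pair.

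Of the 11 transcripts at 100 TPM or more on average, 3 further ones had smaller differences with narrow spread. The 41st in order, of 1378 bases, held 135 ± 16.2 against 92.6 ± 11.002 TPM at 5 h, with 1 of 64 pairs higher in bromobenzene, and 158 ± 16.2 against 82.1 ± 16.3 TPM at 10 h without overlap. The 39th, of 2983 bases, held 199 ± 35.5 against 123 ± 31.3 TPM at 5 h and 187 ± 17.8 against 104 ± 14.6 TPM at 10 h. The 55th, of 4877 bases, held 123 ± 14.9 against 92.1 ± 19.9 TPM at 5 h and 137 ± 17.7 against 79.6 ± 20.1 TPM at 10 h.

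A deeper value at 10 h was also seen for the 9th, 10th and 30th in order. The 9th, 3416 bases long, held 262 ± 59.3 against 138 ± 52.2 TPM at 5 h and 269 ± 34.7 against 81.2 ± 30.6 TPM at 10 h. The 10th, of 1360 bases, had the most negative 10 h difference of all, -1.80, with 61.6 ± 7.25 against 17.99 ± 6.10 TPM, after -0.95 at 5 h. Its estimated counts were not whole numbers, so it shared reads with other transcripts and its level depends on how they were divided. The 30th, of 3341 bases, moved from -0.53 at 5 h to -1.33 at 10 h.

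The opposite order was clearest for the 12th, 1101 bases long. It held 10.97 ± 3.25 TPM in vehicle and 2.22 ± 0.906 TPM in bromobenzene livers at 5 h with no overlap, and 8.502 ± 2.14 against 5.65 ± 1.47 TPM at 10 h with 7 of 64 pairs higher in bromobenzene. The log2 difference was -2.10 at 5 h and -0.55 at 10 h. The 6th, of 3220 bases, went from 493.1 ± 110 to 165 ± 120 TPM at 5 h and from 287 ± 56.2 to 141 ± 62.7 TPM at 10 h. Here the 10 h difference was smaller, -1.11 against -1.75 (-1.26 against -1.99 without the libraries that stood apart), beside a vehicle level that was itself lower at 10 h (log2 difference -0.78, edgeR adjusted p = 0.0466).

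The 2 transcripts with full separation at both times were not among the deepest. The 38th, of 714 bases, held 3.01 ± 0.457 against 1.86 ± 0.529 TPM at 5 h and 2.92 ± 0.780 against 1.27 ± 0.587 TPM at 10 h. The 62nd, of 4019 bases, held 25.5 ± 1.78 against 18.3 ± 3.51 TPM at 5 h and 32.6 ± 2.44 against 21.6 ± 3.01 TPM at 10 h (SD, n = 8 in each group). It too shared reads with other transcripts.

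Library by library, the 79 were down together in most bromobenzene livers. The median deviation at 5 h was -0.93, -0.09, -0.75, -1.07, -0.78, -0.63, -0.89 and -0.69 for replicates 1 to 8. At 10 h it was -0.89, -0.73, -0.75, -0.84, -0.80, -0.83, -0.47 and -0.92. No vehicle liver deviated by more than -0.18 to 0.16. Replicate 7 at 10 h lay nearest to the vehicle livers in its group, with 45 of the 79 below the lowest vehicle liver, whereas the other bromobenzene livers at 10 h had 61 to 71. At 5 h the bromobenzene livers other than replicate 2 had 50 to 73 transcripts below the lowest vehicle liver.

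**Figure D3:**
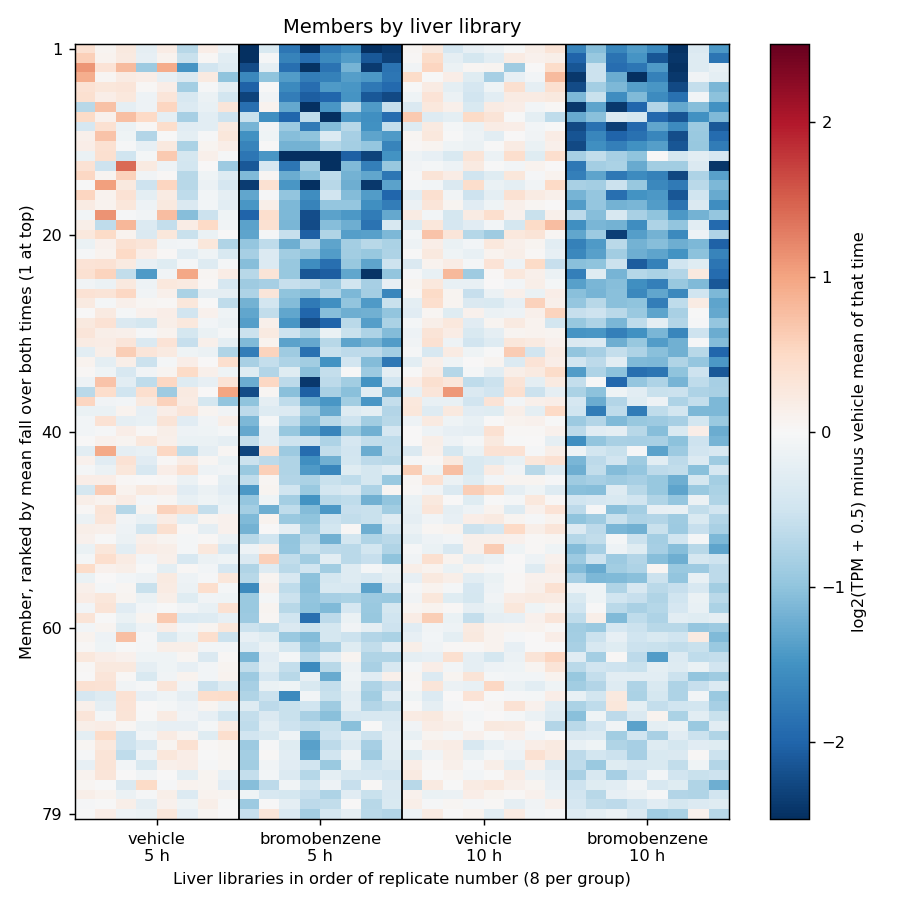
Deviation of each of the 79 transcripts (rows, in order of the mean of the 5 h and 10 h differences) from its vehicle mean of the same time on the log2(TPM + 0.5) scale, in each of the 32 liver libraries (columns). Bromobenzene replicate 2 at 5 h and replicate 7 at 10 h are paler than the other bromobenzene livers of their time, with medians of -0.09 and -0.47.

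Summed over the 79, vehicle livers held 5525 ± 739 TPM at 5 h and 6551 ± 370 TPM at 10 h (SD, n = 8 each). Bromobenzene livers held 2973 ± 972 TPM at 5 h and 3224 ± 654 TPM at 10 h, or 2653 ± 383 TPM without replicate 2 and 3028 ± 375 TPM without replicate 7 (SD, n = 7 each). The highest bromobenzene libraries were the same 2 as above, with 5212 TPM in replicate 2 at 5 h and 4596 TPM in replicate 7 at 10 h. Without the most abundant transcript the vehicle sums were nearly equal at the times, 5219 ± 731 and 5178 ± 394 TPM. The bromobenzene sums were then 2863 ± 935 and 2557 ± 436 TPM. Without replicate 2 that 5 h sum was 2556 ± 378 TPM (SD, n = 7), near the 10 h value. The 10 h sum of this kind is not given without replicate 7.

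**Figure D4:**
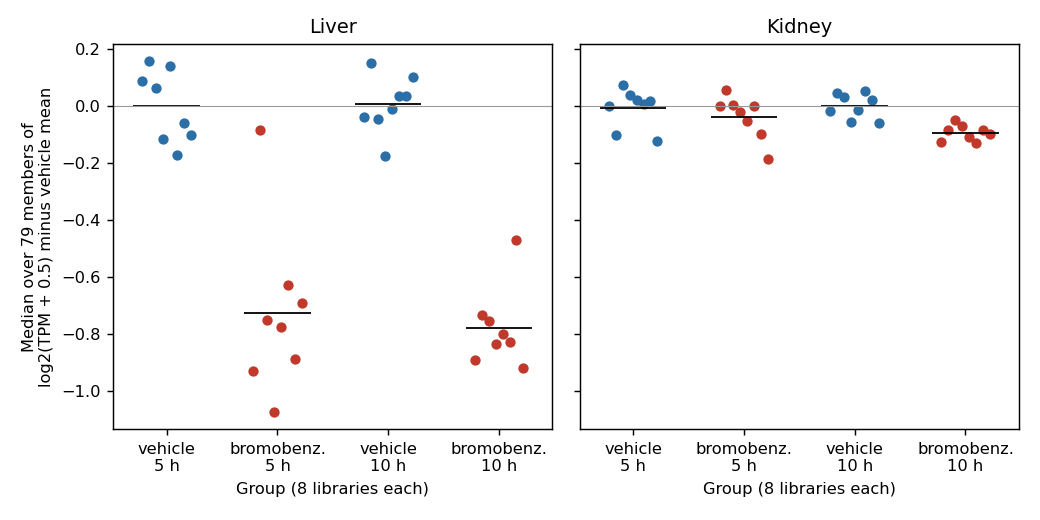
Median deviation of the 79 transcripts from the vehicle mean of the same organ and time, in log2 units, with each point a library and the groups of liver and kidney side by side. Bromobenzene livers lie between -1.07 and -0.09, whereas no kidney library deviates by more than -0.19 to 0.07.

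With edgeR across 17535 transcripts of the liver libraries, 50 of the 79 had a Benjamini-Hochberg adjusted p under 0.05 and a lower level in bromobenzene at 5 h, against 1.25% of all transcripts tested and 1.75% of those at 2 TPM or more. At 10 h the number was 73, against 5.04% and 6.79%. Both times were called for 49 and neither for 5. The times differed by 24 called at 10 h alone and 1 called at 5 h alone. Without bromobenzene replicate 2, 65 were called at 5 h and 73 at 10 h, and without replicate 7 of the 10 h group 54 and 72. Of all tested transcripts, 4.29% and 11.4% were called in either direction without replicate 2. Without replicate 7 these shares were 2.76% and 11.5%, and with every library 2.78% and 11.2%. These counts restate the choice of transcripts.

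Libraries were numbered from 1 to 64, and these numbers were treated as 2 runs that each held both agents. Liver libraries 1 to 18 and kidney libraries 33 to 50 made up the first run. Liver libraries 19 to 32 and kidney libraries 51 to 64 made up the second. Differences within each run are given as a description, since the pooled differences chose the transcripts. At 5 h the median difference was -0.63 within the run with 2 bromobenzene and 5 vehicle livers, and -0.74 within the run with 6 and 3. In the former, 78 of the 79 were below 0 and 63 at -0.4 or lower. In the latter, all 79 were below 0 and 71 at -0.4 or lower. At 10 h it was -0.81 within the run with 5 and 6 livers and -0.85 within the run with 3 and 2. All 79 were below 0 in both, with 73 and 70 at -0.4 or lower. The 2 bromobenzene livers of the first run at 5 h include replicate 2, and with the other 1 alone the median was -1.06. What a run of numbers stands for is not stated. In edgeR fits within a run, 0 and 1 of the 79 were called at 5 h, where 0% and 0.0703% of all transcripts were called in either direction. At 10 h these counts were 47 and 0, against 4.74% and 0.0162% of all.

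The vehicle livers alone were compared between the times, a contrast the choice did not set, although its libraries also served as the controls of the choice. Of the 79, 12 were higher at 10 h than at 5 h (15.2%, against 5.86% of the transcripts at 2 TPM or more that were tested and 4.32% of all tested). Another 4 were lower (5.06%, against 5.85% of those at 2 TPM or more and 5% of all tested). The remaining 63 did not pass, and 26 of the 79 had an unadjusted p under 0.05 (32.9%, against 21.3% of all tested and 25.2% of those at 2 TPM or more). Without the 10 h vehicle livers 4 of the 79 would average under 2 TPM, and 1 of them is among the 12. The median log2 difference was 0.10, against 0.01 for the tested transcripts at 2 TPM or more, and 47 of the 79 were above 0.

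That one is ENSRNOT00000027506.5, with the largest difference, 3.49. It reached the level of the choice through the 10 h vehicle livers, where it is high, so this value is a description. Next came ENSRNOT00000018795.3, as above. For both, the vehicle livers at 5 h and 10 h did not overlap. The lowest of the 79 in this contrast was the 63rd in order, 1329 bases long, with 29.8 ± 3.99 TPM at 5 h and 16.4 ± 4.33 TPM at 10 h in vehicle livers (SD, n = 8 each; log2 difference -0.86, adjusted p = 0.00105 by edgeR). The 62nd in order was higher at 10 h by 0.36 (adjusted p = 0.0142 by edgeR). Within the 2 runs of library numbers the calls were 11 and 3 in place of 16, or 13.9% and 3.80% of the 79, against 3.82% and 0.627% of all tested.

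**Figure D5:**
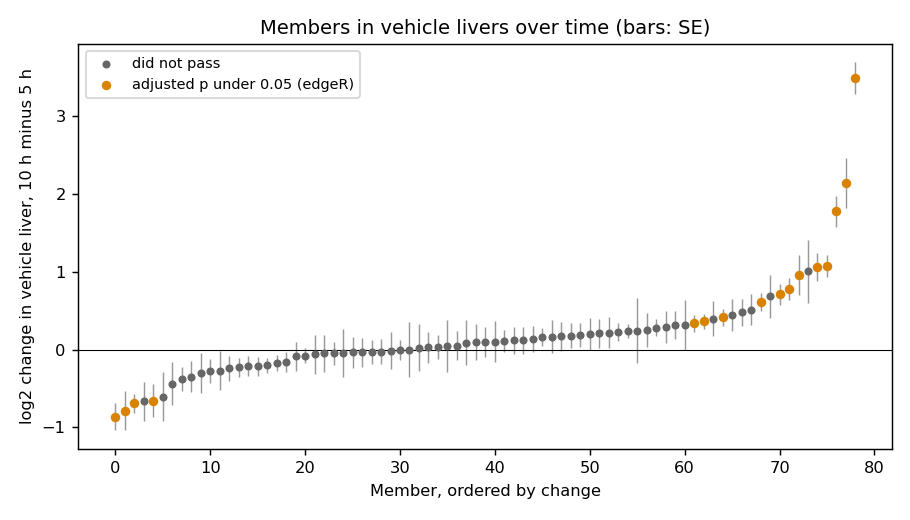
Vehicle liver at 10 h minus vehicle liver at 5 h for the 79 transcripts, as edgeR log2 differences with standard errors in order of size, with those past an adjusted p of 0.05 marked. The values run from -0.86 to 3.49, and 12 are higher and 4 are lower past the threshold.

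The kidney libraries were not used in the choice of transcripts. Of the 79, 75 had enough counts to be tested in kidney. At 5 h, 1 was lower in bromobenzene than in vehicle kidneys (1.33% of the 75, against 0.14% of all 20004 transcripts tested and 0.2% of those at 2 TPM or more in liver) and none was higher (0.235% and 0.234% were). By unadjusted p under 0.05 in either direction there were 22 (29.3%, against 14% of all tested and 15.8% of those at 2 TPM or more in liver). The median log2 difference of the 75 was -0.05, from -0.62 to 0.32, against -0.02 for all tested transcripts at 2 TPM or more in liver, and 33 were above 0. DESeq2 called 3 of them, where it called 1.72% of all, and limma 0, where it called 0.125% of all.

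The transcript called at 5 h was the 21st in order, 1388 bases long, with vehicle kidneys at 40.7 to 55.8 TPM (median 43.2) and bromobenzene kidneys at 33.1 to 41.2 TPM (median 36.6). The groups overlapped narrowly. The means were 44.4 ± 4.86 and 36.5 ± 2.74 TPM (SD, n = 8 each), a log2 difference of -0.32 ± 0.067 (SE, adjusted p = 0.0306 by edgeR). At 10 h its kidney difference was 0.02 (adjusted p = 0.964), and it shared reads with other transcripts. The count of called transcripts became 0 when any of vehicle replicates 1, 2, 3 and 4 or bromobenzene replicates 3 and 5 of the 5 h kidneys was left out. It became 2 without vehicle replicate 8 and 4 without bromobenzene replicate 8. The share of all tested transcripts called in either direction moved too, from 0.375% with every library to 0.124% without vehicle replicate 1. The shares in the other fits are not given here, so nothing is read from these counts.

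One vehicle kidney at 5 h, replicate 4, carried 2.09% of its counts in a set of 405 liver-enriched transcripts. The other vehicle kidneys of that time had 0.247% to 0.341%, and the bromobenzene kidneys of that time 0.2498% to 0.5595%. The set holds 7 of the 79 and was taken on counts scaled by library totals, at 5 CPM or more in vehicle liver and at least 16-fold above the median vehicle kidney with 0.5 CPM added to both. Among the transcripts named above replicate 4 had the highest vehicle kidney level at 5 h of ENSRNOT00000008535.5, at 4.27 TPM, and of ENSRNOT00000018795.3, at 14.1 TPM. Without it the median 5 h kidney difference of the 75 tested was 0.01, and 15 had an unadjusted p under 0.05 in place of 22. The median and share of all tested transcripts in that fit are not given here, so nothing is read from this change. What it comes from was not tested.

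At 10 h, again 1 of the 75 was lower in bromobenzene kidneys (against 0.32% of all tested and 0.339% of those at 2 TPM or more in liver) and none was higher (0.305% and 0.382% were), with 17 at an unadjusted p under 0.05 in either direction (22.7%, against 10.1% of all tested and 11.6% of those at 2 TPM or more in liver). The median was -0.05, from -0.52 to 1.39, against 0.00 for the tested transcripts at 2 TPM or more, and 26 were above 0. DESeq2 called 4 and limma 5, against 1.57% and 1.06% of all tested. The transcript called by edgeR was the 71st in order, 7439 bases long, with 31.4 to 38.7 TPM in vehicle kidneys (median 34.4) and 27.2 to 31.5 TPM in bromobenzene kidneys (median 28.7). Only the edges of the groups overlapped. Its log2 difference was -0.21 ± 0.045 (SE, adjusted p = 0.0195 by edgeR), after -0.09 at 5 h (adjusted p = 0.346), and it shared reads with other transcripts.

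The 10 h kidney count became 0 when bromobenzene replicate 4 or vehicle replicate 5 or 6 was left out, and 2 without bromobenzene replicate 5 or vehicle replicate 4. Shares of all transcripts called in these fits are not given here, so nothing is read from these counts. Separation of every bromobenzene kidney below every vehicle kidney was seen for 0 of the 79 and 0% of the 11866 transcripts at 5 h. At 10 h it was seen for 1 of the 79, the 33rd in order, against 0.531% of the 11866. Its edgeR adjusted p was 0.157. ENSRNOT00000027506.5 had 17.9 to 29.8 TPM in vehicle and 14.5 to 20.3 TPM in bromobenzene kidneys at 10 h. The means were 25.6 ± 3.9995 and 17.3 ± 2.07 TPM (SD, n = 8 each). The groups overlapped in 3 of 64 pairs, and the log2 difference of -0.52 ± 0.15 did not pass (SE, adjusted p = 0.0961 by edgeR).

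Kidney values of the 2 other transcripts given by name showed no call. For ENSRNOT00000008535.5 the log2 differences were -0.52 at 5 h (adjusted p = 0.564 by edgeR) and -0.15 at 10 h (adjusted p = 0.944). For ENSRNOT00000018795.3, at 4.51 to 5.48 TPM on average, they were -0.21 (adjusted p = 0.780) and 0.26 (adjusted p = 0.832). Summed over the 79, kidneys held 2210 ± 104 TPM in vehicle and 2136 ± 120 TPM in bromobenzene at 5 h, and 2327 ± 104 and 2177 ± 79.2 TPM at 10 h (SD, n = 8 each). On the TPM scale, a kidney difference below 0 was found at 5 h for 53.2% of the 79 and for 43.8% of the 11866 transcripts, and at 10 h for 69.6% and 67.0%.

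Most of the 79 were higher in liver than in kidney. The vehicle livers compared here also served as the controls of the choice, which set a minimum level in liver and none in kidney. The organ values are therefore a description. In the vehicle libraries, 71 were higher in liver (89.9%, against 36.4% of all tested transcripts and 53.5% of those at 2 TPM or more in liver) and 7 were lower (8.86%, against 44.5% and 30.6%), by edgeR at an adjusted p under 0.05. The median log2 difference between the organs was 1.75, from -2.44 to 9.88, against 0.22 for the tested transcripts at 2 TPM or more. By the edgeR log2 difference with TMM scaling, 16 of the 79 were at least 16-fold higher in liver (20.3%, against 3.72% of all tested and 5.59% of those at 2 TPM or more), and 1 was at least 4-fold lower (1.27%, against 15.7% and 2.92%). With library totals alone these shares of the 79 were 13.9% and 5.06%. These counts depend on the scaling between organs. With library totals alone the median of all tested transcripts moved from -0.11 to -1.10, that of the 79 to 0.76, and the counts to 55 higher and 19 lower. The matching counts of all tested transcripts are not given here. From TPM means over the 32 libraries of each organ, the median log2 ratio of liver to kidney was 0.64 for the 79 and -0.62 for the 11866. At least 4-fold higher in liver were 26.6% and 7.2%, and at least 4-fold higher in kidney 3.8% and 6.7%.

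The extremes of the organ comparison were far apart, from a log2 difference of 9.88 for the 29th in order to -2.44 for the 67th. The 29th in order, 864 bases long, held 52.6 ± 10.7 TPM in vehicle livers at 5 h and was listed at 0 in most kidney libraries. The 53rd, 2867 bases long, averaged 236 TPM in kidney against 32.1 TPM in liver, and the 12th 54.2 TPM in kidney. Under 2 TPM on average in kidney were 12 of the 79. ENSRNOT00000018795.3 was higher in liver by 7.95 and ENSRNOT00000008535.5 by 6.50 on the log2 scale, and for ENSRNOT00000027506.5 the difference was -1.13.

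Their mean TPM over the 32 liver libraries ran from 2.01 to 614 with a median of 21.8, against 10.1 for the 11866. From 2 to 10 TPM were 26 of them (32.9%, against 49.8% of the 11866). From 10 to 100 TPM were 42 of them (53.2%, against 41.1%), and 11 were at 100 TPM or more (13.9%, against 9.14%). Their lengths ran from 365 to 9139 bases with a median of 2715, against 1959. Estimated counts were whole in all 32 liver libraries for 42 of the 79 (within 0.001, and 43.9% of the 11866), and for the others reads were divided among transcripts.

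How far the 79 varied together across libraries is given as a description, since the livers also chose them. The mean correlation between pairs of the 79, after removing group means, was 0.307 over the 16 bromobenzene livers, against 0.101 for pairs of the 11866, and 0.197 against 0.105 without replicate 2 at 5 h. Over the 16 vehicle livers it was 0.127 against 0.0716. Over the vehicle kidneys it was 0.0865 against 0.0792 and over the bromobenzene kidneys 0.0729 against 0.0885. All such values share library depth and composition.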

How the data were processed

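RNA from 64 liver and kidney samples was sequenced as 150-base pairs. Per the submitters' processing notes, kallisto 0.42.4 and build Rnor_6.0 were used, and the authors deposited an estimated count and a TPM for 31715 transcripts per library. Nothing in the sources used here gives further filters. TPM was used for levels and for choosing the transcripts. Estimated counts were rounded and tested in edgeR 4.0.16 (R 4.3.3; filterByExpr, TMM, robust quasi-likelihood fit, Benjamini-Hochberg over all transcripts tested, threshold 0.05), with all 32 libraries of an organ in 1 fit, and all 32 vehicle libraries for the organ comparison. The script was tested on simulated counts. DESeq2 1.42.0, limma 3.58.1, other scalings, the runs of library numbers and left-out libraries were alternatives. The transcripts and lists were chosen with earlier results of these data known. Of the 79, 0 matched the RefSeq tables, so the pathway and marker lists were not tested and no sequences are shown. By rule the deepest and the most abundant transcript are named. Another was added after its values were seen.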

Additional observations from a re-analysis of the deposited data

Results flagged for a closer look

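In the 8 groups of 8 libraries, the median deviation and the level of each of the 3 named transcripts were examined for a single library far from the others, 32 tests in all. Of these, 2 stood out, and chance alone gives such a library in about 1 test in 20. In bromobenzene livers at 5 h, replicate 2 had a median deviation of the 79 transcripts of -0.0853 on the log2 scale, with the next library at -0.63. In bromobenzene livers at 10 h, replicate 7 had -0.4713, with the next at -0.7335. In both cases the library lay nearest to the vehicle livers. What sets these libraries apart was not tested.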

How the results depend on the processing

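The number of transcripts chosen, 79, was 84 with 0.1 TPM added in place of 0.5 (all 79 among them), 74 with 1 TPM added, 84 on TMM-scaled CPM (68 shared with the 79) and 77 with TPM divided by TMM factors (71 shared). Within the runs of library numbers it was 66 (36 shared) and 85 (49 shared). Leaving out 1 liver library at a time gave 62 to 84. The alternatives with TMM-scaled TPM, left-out liver libraries for this number and the runs for the liver and kidney calls were chosen after seeing the data. Liver calls among the 79 within the runs were 0 and 1 at 5 h, against 50, and 47 and 0 at 10 h, against 73; fewer libraries enter these fits, which called 0.0162% to 4.74% of all transcripts where they made any call. For kidney, the 1 call at 5 h became 3 with DESeq2, 0 with limma, 0 with the 2 groups of that time alone, 0 and 0 within the runs, 3 without vehicle replicate 4 and bromobenzene replicate 8 together, and 0 to 4 with 1 library left out. The 1 call at 10 h became 4 with DESeq2, 4 with library totals, 5 with limma, 3 with the 2 groups alone, 0 and 0 within the runs, and 0 to 2 with 1 library left out. Of all tested kidney transcripts, the 2 groups alone called 0% at 5 h and 1.23% at 10 h, and library totals 0.99% at 10 h. The 16 vehicle calls between the times were 3 within the second run and 13 to 16 with 1 library left out. The 7 calls lower in liver than in kidney were 19 with library totals. The cause of these shifts was not tested. No paired analysis was possible because the labels give no replicate numbers shared between groups. Of the 79, 4 had too few kidney counts to be tested.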
